A study of Mus musculus with 26 samples.

Results

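The 45 genes described here drive DNA replication and cell division. They were compared in the colon between untreated mice and mice treated to induce tumours. They were chosen by name, with no measured value in the choice. Of them, 20 are used around the start of S phase and during it, and 25 around G2 and mitosis. They belong to 35975 annotated genes, of which 17063 had enough reads to be tested, and all 45 were among those tested.

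RNA was sequenced from 26 colon libraries of wild-type C57BL/6J male mice, with a starting age of about 10 weeks. The mice ate either a standard diet or the same kind of diet with GW3965, a synthetic agonist of liver X receptor (LXR), a nuclear receptor that senses oxidised cholesterol. In 18 of the libraries the mice had received an injection of azoxymethane (AOM, 10 mg per kg), a mutagen, followed by cycles of dextran sodium sulfate (DSS) in the drinking water, which injures the colon lining, and tissue was taken 22, 43 or 70 days after AOM (n = 3 libraries for each diet and day). A full course has 3 cycles, and day 22 followed the first of them. The study's methods place the RNA biopsies of this model in the distal colon, matching the tumour areas. The other 8 came from mice that had received neither agent and are called day 0 (n = 4 for each diet). Replicates 1 and 2 of each day 0 group had 22 days on the diet, and replicates 3 and 4 had 43 days. A library of colon tissue mixes all its cell types, so fewer cells of a type and less RNA per cell cannot be told apart.

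A cell that divides first loads the MCM2 to MCM7 helicase onto origins of replication, with CDC6 and CDT1 as loaders, and then opens the DNA with CDC45 and the GINS complex. PCNA, the sliding clamp, holds the polymerases on the DNA, while ribonucleotide reductase, thymidylate synthase and thymidine kinase supply the nucleotides. E-type cyclins start S phase, and cyclins A and B with CDK1 carry the cell into mitosis, where Aurora and Polo-like kinases, kinesins and centromere proteins build the spindle and the anaphase promoting complex ends it. E2F factors transcribe many of the S phase genes, and FOXM1 and B-MYB (Mybl2) with the MuvB complex many of the mitotic ones. In the healthy colon, division is a property of the lower crypt, where stem cells and their transit-amplifying daughters sit.

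The libraries held 18195345 to 41522204 estimated counts (median 20424701). Some of them stood apart. At day 43 the RNA integrity number, a score of RNA breakdown, was 2.6, 8.4 and 7.8 on the standard diet and 8, 6.8 and 9.3 on GW3965, against 9.1 to 10 in the other 20 libraries, and the share of counts on 88 ribosomal protein genes was 10 to 18.6% there against 3.96 to 10.7% elsewhere. Skeletal muscle markers summed to 18824 CPM (counts scaled to the normalised library total) in GW3965 day 70 replicate 1, against 22.2 to 86.1 CPM at day 0. Markers of stratified epithelium, the kind that lines the anal end, summed to 2369, 2476 and 2038 CPM in the standard-diet day 70 libraries. In the GW3965 day 70 libraries they summed to 9178, 4.09 and 10825 CPM, against 1.91 to 3.49 CPM at day 0. The source of these markers was not tested. Epithelial markers, which the colon label calls for, summed to 2860 CPM or more in all 26 libraries. GW3965 day 0 replicate 4 carries diet labels that disagree with each other and was kept in the group that its main label gives. On days 0, 22 and 43 each diet group was housed in a cage of its own, so cage and diet cannot be told apart there. Days 22 and 43 share a cage within each diet, day 0 came from another cage and each day 70 library from a cage of its own, so changes from day 0 and changes to day 70 cannot be told apart from differences between cages. The sources differ on whether a library is 1 mouse or a pool, so a p-value measures only the spread between these libraries.

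The promoters of 4 members are shown because they hold letters known to be used in S phase or in mitotic genes. RefSeq (GRCm38.p6) gave a promoter for 36 of the 45 members, taken as 250 bases before to 50 bases after the gene's start. Letters bound by E2F factors (TTTCGCGC, TTTGGCGC, TTTCCCGC or TTCCCGCC on either strand, of which some can overlap each other) were found in 7 of 17 S phase promoters (41.2%), in 1 of 19 mitotic promoters (5.26%), and in 1081 of 27025 gene promoters of the same length (4%). The letters of the cell cycle homology region, TTTGAA on either strand, were found in 3 of 17 S phase promoters (17.6%), 13 of 19 mitotic promoters (68.4%) and 20.2% of all promoters. CCAAT, the box of the NF-Y factor, on either strand, was found in 64.7% of the S phase promoters, 84.2% of the mitotic promoters and 41.1% of all promoters. The promoters of Mcm5 (chr8:75109259-75109558, plus strand) and Mcm6 (chr1:128359656-128359955, minus strand), which encode subunits of the helicase, are written with the E2F letters in capitals, and those of Ccnb2 (cyclin B2, chr9:70421505-70421804, minus strand) and Cdc20 (chr4:118437294-118437593, minus strand), an activator of the anaphase promoting complex, with the TTTGAA letters in capitals.
Mcm5: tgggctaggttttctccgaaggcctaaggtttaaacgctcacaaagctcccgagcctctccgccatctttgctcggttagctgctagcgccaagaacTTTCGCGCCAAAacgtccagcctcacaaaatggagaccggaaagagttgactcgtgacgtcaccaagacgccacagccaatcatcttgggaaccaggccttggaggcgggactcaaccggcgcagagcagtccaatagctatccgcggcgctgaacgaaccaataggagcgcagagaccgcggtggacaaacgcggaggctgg
Mcm6: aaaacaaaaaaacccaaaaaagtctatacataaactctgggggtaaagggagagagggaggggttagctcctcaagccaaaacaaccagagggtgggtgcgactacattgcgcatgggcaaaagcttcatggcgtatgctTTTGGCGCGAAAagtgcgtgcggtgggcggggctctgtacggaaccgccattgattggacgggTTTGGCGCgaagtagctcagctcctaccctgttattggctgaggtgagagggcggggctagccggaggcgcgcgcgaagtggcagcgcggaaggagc
Ccnb2: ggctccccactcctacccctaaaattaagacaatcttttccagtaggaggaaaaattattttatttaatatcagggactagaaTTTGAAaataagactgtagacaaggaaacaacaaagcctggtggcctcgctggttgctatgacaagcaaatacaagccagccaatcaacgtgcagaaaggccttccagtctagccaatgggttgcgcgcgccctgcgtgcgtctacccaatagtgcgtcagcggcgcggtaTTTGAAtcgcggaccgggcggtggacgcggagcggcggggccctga
Cdc20: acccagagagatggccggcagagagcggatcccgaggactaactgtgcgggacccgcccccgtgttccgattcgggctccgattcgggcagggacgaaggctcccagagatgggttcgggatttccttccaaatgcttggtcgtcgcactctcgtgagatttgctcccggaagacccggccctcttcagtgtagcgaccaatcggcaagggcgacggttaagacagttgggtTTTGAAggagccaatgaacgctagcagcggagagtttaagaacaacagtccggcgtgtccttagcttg
A match is a stretch of letters and was not tested as a binding site.

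**Figure D1:**
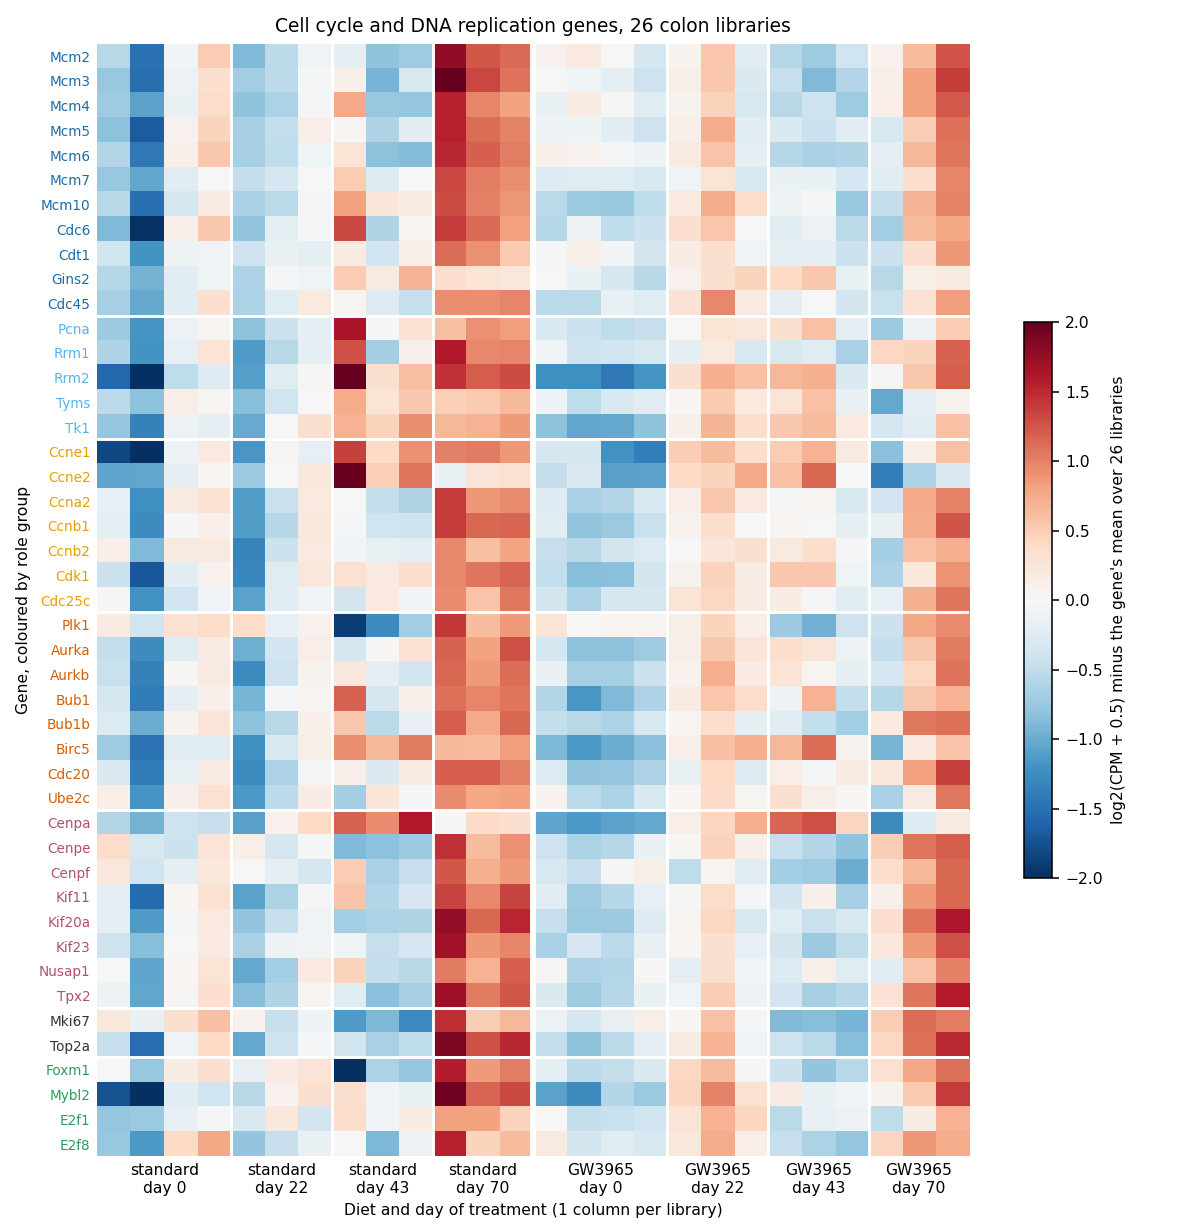
Heat map of the 45 members (rows, grouped by role) in the 26 libraries (columns, grouped by diet and day). Colour shows log2(CPM + 0.5) minus the gene's mean over all libraries, with the colour scale ending at 2 log2 units either way. The standard-diet day 70 libraries hold the highest mean for 40 members, GW3965 day 70 replicate 1 is the lowest of its group in 45 of 45 members, and standard-diet day 43 replicate 1 is the highest of its group in 31.

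Per length, over all 26 libraries, Pcna had the highest mean level of the members at 111 TPM, a unit scaled by transcript length and library, followed by Cdk1 at 57.8 and Ube2c, the ubiquitin-conjugating enzyme of the anaphase promoting complex, at 54.5 TPM. Cenpf, a very long kinetochore gene, had the lowest at 2.15 TPM, and Mki67, which coats mitotic chromosomes and gives the Ki-67 antigen and lies at chr7:135689784-135716361 (GRCm38), had 7.73 TPM. Of the day and diet groups, standard-diet day 70 had the highest mean CPM for 40 of the 45 members, and standard-diet day 43 for the other 5, which were Birc5, Ccne2, Cenpa, Gins2 and Pcna. In TPM standard-diet day 70 had the highest mean for 43, and of those 5 only Ccne2 kept its highest mean at standard-diet day 43. That mean was 10.7 TPM with an SD of 9.02, against 9.97 TPM at standard-diet day 70. In replicate 1 of standard-diet day 43, of integrity number 2.6, Ccne2 was at 92.3 CPM, against 19.8 and 30.1 CPM in the others. Pcna was at 398 CPM there, against 127 and 158 CPM. The highest and lowest libraries within a group lay far apart. Replicate 2 of the standard-diet day 0 group was the lowest of its group in 42 of 45 members. Its smooth muscle markers summed to 23417 CPM, the most of any library, and the part that tissue make-up played in its low values was not tested. In the standard-diet day 0 libraries the S phase members had a mean log2(CPM + 0.5) of 3.77 and 3.22 after 22 diet days. After 43 diet days it was 4.47 and 4.77. On GW3965 the day 0 order was the other way, with 4.31 and 4.24 after 22 days and 4.11 and 4.06 after 43. The part of the diet days in these levels was not tested.

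Most members rose between day 0 and day 70 in mice on the standard diet. After FDR control with the edgeR quasi-likelihood test, 42 of 45 rose and 0 fell, with a median log2 fold change of 1.37 (the median over all tested genes was 0.04); across all genes 16.7% rose and 13.7% fell. They were 18 of 20 S phase members and 24 of 25 mitotic members. Ccne2 (cyclin E2), Ube2c and the repressor E2f8 were the members not called, with log2 fold changes of 0.65, 0.90 and 0.97. The groups did not overlap, meaning that every day 70 library lay above every day 0 library, in 42 members, against 23.9% of all tested genes. The counts of members called ranged from 34 to 43 when a library was left out, and were 34 without standard-diet day 0 replicate 2, the lowest library, and 34 without day 70 replicate 1. Stratified epithelium markers moved with the day, from 1.91 to 3.49 CPM at day 0 to 2038 to 2476 CPM at day 70, in every library of this comparison, and their part in the members' change was not tested.

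The largest of these changes were in Mybl2 (chr2:163054687-163084688, GRCm38), the B-MYB factor that acts with the mitotic complexes, and in Rrm2 (chr12:24708241-24714146), the small subunit of ribonucleotide reductase. Mybl2 was at 2.54, 1.94, 8.13 and 7.18 CPM at day 0 and 38.7, 22.3 and 24.7 CPM at day 70 (log2 fold change 2.53 ± 0.41 (SE), FDR 0.00021). Rrm2 was at 9.09, 4.06, 19.6 and 23.3 CPM at day 0 and 76.9, 65.7 and 69.8 CPM at day 70 (log2 fold change 2.34 ± 0.47 (SE), FDR 0.00102). Both genes rose in each of the day 70 libraries above the highest day 0 library. Mcm3 was at 16.9, 9.92, 26.8 and 36.3 CPM at day 0 and 119, 74.3 and 62.3 CPM at day 70 (log2 fold change 1.92 ± 0.36 (SE), FDR 0.00059). Mcm6 and Mcm7, the helicase subunits with the highest mean level, rose as well. Mcm6 was at 33.5, 18.5, 54.9 and 73.8 CPM at day 0 and 144, 116 and 103 CPM at day 70 (log2 fold change 1.42), and Mcm7 at 28.4, 23.2, 41.7 and 48.5 CPM at day 0 and 122, 99.1 and 92.5 CPM at day 70 (log2 fold change 1.56). All 11 members of the licensing and helicase group rose, with a median log2 fold change of 1.48.

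Mitotic members followed. Top2a, the topoisomerase that separates sister chromatids, was at 43.1, 20.4, 56.3 and 79.4 CPM at day 0 and 222, 145 and 171 CPM at day 70 (log2 fold change 1.85 ± 0.33 (SE), FDR 0.00043). Mki67 was at 69.5, 53.1, 74.2 and 90.1 CPM at day 0 and 166, 82.8 and 93.8 CPM at day 70 (log2 fold change 0.67 ± 0.23 (SE), FDR 0.0299), and its groups overlapped. Kif20a, a kinesin of the central spindle, was at 13.7, 6.89, 15.4 and 18.1 CPM at day 0 and 54.4, 35.5 and 46.2 CPM at day 70 (log2 fold change 1.75 ± 0.29 (SE), FDR 0.00025). Tpx2, which organises spindle microtubules, was at 19.2, 9.82, 20.9 and 26.1 CPM at day 0 and 68.5, 43.1 and 49.6 CPM at day 70 (log2 fold change 1.5). Foxm1, the factor that drives G2 and M genes, was at 12.7, 7.32, 14.2 and 16.1 CPM at day 0 and 38.7, 23.3 and 26.3 CPM at day 70 (log2 fold change 1.22), and Cdc25c, the phosphatase that activates CDK1, was at 4.33, 1.56, 3.15 and 4.01 CPM at day 0 and 8.62, 6.53 and 9.38 CPM at day 70 (log2 fold change 1.32). All 8 members of the centromere and spindle group rose, with a median of 1.29.

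The cyclins and regulators gave the same direction. Ccna2, cyclin A2, was at 45.5, 21.6, 57.7 and 62.7 CPM at day 0 and 136, 93.7 and 99 CPM at day 70 (log2 fold change 1.22), and Cdk1, the mitotic kinase, at 25.2, 10.2, 29.1 and 36.2 CPM at day 0 and 67.4, 72.8 and 77 CPM at day 70 (log2 fold change 1.52). Ccne1, cyclin E1, was at 2.5, 2.12, 9.32 and 11.7 CPM at day 0 and 20.9, 21.3 and 18.9 CPM at day 70 (log2 fold change 1.66 ± 0.48 (SE), FDR 0.0115). In these cyclin and kinase genes the day 70 libraries all lay above the day 0 libraries. E2f1, an activator of S phase genes, was at 4.43, 4.53, 6.98 and 7.78 CPM at day 0 and 14.4, 14.2 and 11.1 CPM at day 70 (log2 fold change 1.16 ± 0.27 (SE), FDR 0.00296). Its relative E2f8, which represses them, was at 5.7, 4.25, 13.3 and 17.5 CPM at day 0 and 30.3, 13.8 and 15.8 CPM at day 70 (log2 fold change 0.97 ± 0.37 (SE), FDR 0.0533), and Ube2c at 38.4, 15.2, 37.6 and 43.1 CPM at day 0 and 67.5, 59.7 and 61.3 CPM at day 70 (log2 fold change 0.90 ± 0.35 (SE), FDR 0.0577). E2f8 overlapped between the groups and Ube2c did not, yet neither passed. By role, 6 of 7 cyclin and Cdk1 control genes rose (median 1.32), 7 of 8 mitotic kinase and checkpoint genes (median 1.33), 5 of 5 nucleotide and clamp genes (median 1.29) and 3 of 4 transcription factors (median 1.19). Of the mitotic kinase and checkpoint genes, Plk1, Aurka, Aurkb, Bub1, Bub1b and Cdc20 rose by 0.86 to 1.5 on the log2 scale.

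On the GW3965 diet the same comparison gave 25 members that rose and 0 that fell, with a median log2 fold change of 0.98 (all tested genes 14.7% higher, 6.82% lower). They were 19 of 25 mitotic members and 6 of 20 S phase members. The 6 were Mcm3, Mcm7, Mcm10, Rrm1, Rrm2 and Tk1, and the other S phase members had values such as 0.60 for Mcm6, 0.40 for Pcna and -0.01 for Ccne2. Rrm2 was at 11.7, 11.7, 10.1 and 12.1 CPM at day 0 and 27.3, 40.9 and 65.6 CPM at day 70 (log2 fold change 1.97 ± 0.46 (SE), FDR 0.00446). Mybl2 was at 4.32, 3.72, 6.22 and 5.57 CPM at day 0 and 10.1, 14 and 26.2 CPM at day 70 (log2 fold change 1.76 ± 0.40 (SE), FDR 0.00373), and Kif20a at 11.3, 9.27, 9.36 and 13.1 CPM at day 0 and 20, 33.6 and 49.5 CPM at day 70 (log2 fold change 1.67 ± 0.29 (SE), FDR 0.00044). All 25 members called on GW3965 were also called on the standard diet, which is 59.5% of the members called there; the diets share no library in these comparisons. By role, 6 of 8 mitotic kinase and checkpoint genes (median 1.12), 6 of 8 centromere and spindle genes (median 1.24), 3 of 7 cyclin and Cdk1 control genes (median 0.93), 3 of 5 nucleotide and clamp genes (median 1.01), 2 of 4 transcription factors (median 1.03) and 3 of 11 licensing and helicase genes (median 0.75) rose, with Mki67 and Top2a. Pcna was at 104, 95.2, 90.6 and 93.1 CPM at day 0 and 77.7, 119 and 183 CPM at day 70, against 77.2, 56.2, 118 and 133 CPM at day 0 and 195, 242 and 231 CPM at day 70 on the standard diet. A difference between S phase and mitotic members was not tested.

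The GW3965 day 70 group was uneven, since replicate 1 was the lowest in all 45 members and replicate 3 the highest in 43. Top2a was at 80.2, 129 and 169 CPM in replicates 1, 2 and 3, and Mcm6 at 44.7, 80.5 and 106 CPM. Epithelial markers summed to 2860 CPM in replicate 1 and to 9939 and 10098 CPM in the others. The part of epithelial content in these levels was not tested. The number of members called at day 70 over day 0 was 30 without replicate 1, 10 without replicate 3 and 16 without day 0 replicate 2. It was 6 when the libraries with over 1000 CPM of stratified epithelium or skeletal muscle markers were left out, which leaves 1 library at day 70, assumed to vary like the other groups, and the median was then 0.98 as with all libraries. The median was 0.67 without replicate 3 and 1.17 without replicate 1.

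**Figure D2:**
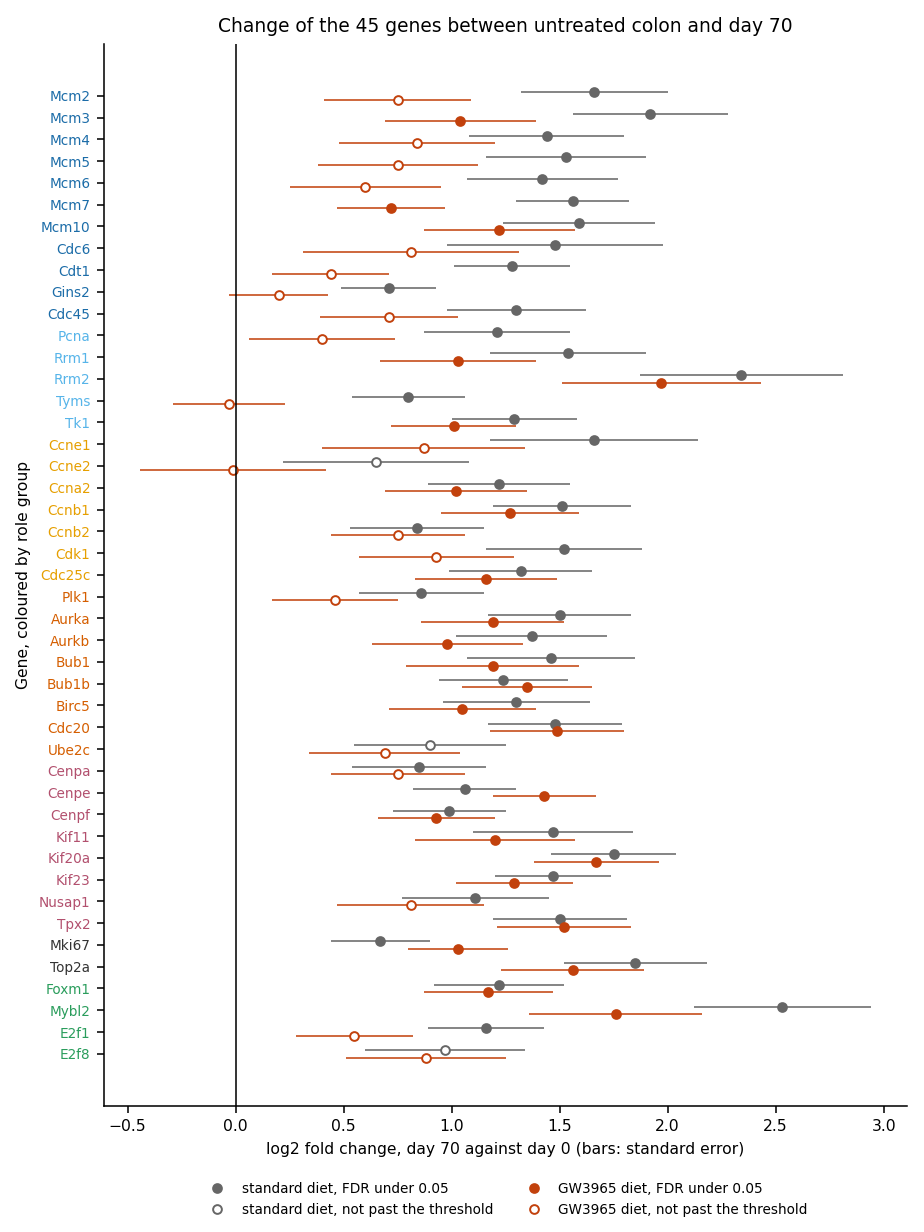
Log2 fold change of each of the 45 members, day 70 against day 0, with bars of 1 SE, on the standard diet and on the GW3965 diet. Filled points passed FDR 0.05. On the standard diet 42 points are filled, on GW3965 25, and on the standard diet the estimates run from 0.65 to 2.53.

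From day 22 to day 43 few members passed on the standard diet, where 10 rose and 4 fell (18% and 15.7% of all tested genes), with a median log2 fold change of 0.31. As a count over the members, the higher calls lie near the share over all genes, and the lower calls lie below theirs. Myeloid markers summed to 133 to 608 CPM at day 22 and to 2302 to 11856 CPM at day 43 on this diet. Stratified epithelium markers summed to 4.51 to 17.6 CPM and to 219 to 1227 CPM. The part of these markers in the members' changes was not tested. The 8 S phase members called all rose, and the mitotic members called were 2 that rose and 4 that fell. The nucleotide and clamp group rose in full (5 of 5), with Gins2, Ccne1, Ccne2, the survivin gene Birc5 and the centromeric histone gene Cenpa. The sign turned for Rrm1 with the RNA integrity number as a covariate (-0.07) and for Gins2 with the ribosomal percentage (-0.10). The 4 that fell were Plk1, Cenpe, Mki67 and Foxm1. Here Rrm2 was at 12.8, 23.6 and 28.5 CPM at day 22 and 124, 35 and 43 CPM at day 43 (log2 fold change 1.64 ± 0.50 (SE), FDR 0.0164), Ccne2 at 8.33, 14.1 and 16.7 CPM at day 22 and 92.3, 19.8 and 30.1 CPM at day 43 (log2 fold change 1.86 ± 0.47 (SE), FDR 0.00493), and Cenpa at 18.9, 43.4 and 53.5 CPM at day 22 and 92.3, 79.1 and 125 CPM at day 43 (log2 fold change 1.36 ± 0.33 (SE), FDR 0.00408).

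The members that fell act in mitosis, but their share of the members was smaller than that of all tested genes that fell. Their main transcripts have 10061 bases for Mki67, 7910 for Cenpe, 4652 for Foxm1 and 2199 for Plk1. Plk1, the Polo-like kinase, was at 47.3, 32.8 and 39 CPM at day 22 and 9.45, 15.1 and 22.4 CPM at day 43 (log2 fold change -1.35 ± 0.32 (SE), FDR 0.00308). Mki67 was at 62.7, 42.9 and 55.1 CPM at day 22 and 26.7, 31.5 and 24.1 CPM at day 43 (log2 fold change -0.97 ± 0.25 (SE), FDR 0.00556), and Foxm1 at 11.3, 14.3 and 15.4 CPM at day 22 and 2.8, 8.08 and 7.24 CPM at day 43 (log2 fold change -1.19 ± 0.33 (SE), FDR 0.00884). The day 43 libraries lay below the day 22 libraries in each of these genes. The value of Pcna was 72.5, 95.1 and 114 CPM at day 22 and 398, 127 and 158 CPM at day 43 (log2 fold change 1.28 ± 0.37 (SE), FDR 0.0112), and that of Rrm1, the large subunit of ribonucleotide reductase, 24, 36.3 and 47 CPM at day 22 and 131, 33.3 and 57.4 CPM at day 43. Rrm1 rose by 1.05 on the log2 scale but its groups overlapped.

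Transcript length moved with these changes. Across the 45 members, log2 fold changes from day 22 to day 43 had a Spearman correlation with the length of the main transcript of -0.41 on the standard diet and -0.62 on GW3965, against -0.37 and -0.45 across all 17063 genes; these are descriptions across genes that share their libraries. The 11 members with a main transcript under 2000 bases had a median of 0.57 on the standard diet, all above 0, and the 6 members of 4000 bases or more a median of -0.43, with 2 above 0. Leaving out standard-diet day 43 replicate 1, the library with the integrity number of 2.6, gave -0.59, the integrity number as a covariate gave -0.66, and the ribosomal percentage as a covariate gave -0.22, when the median of the short transcripts was 0.07. The part of RNA breakdown in these levels was not tested. From day 43 to day 70 the correlations turned over, to 0.47 and 0.72 (all genes 0.34 and 0.52). From day 0 to day 70 they were 0.06 and 0.32.

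The count of 14 members called between day 22 and day 43 fell to 5 without standard-diet day 43 replicate 1 and to 5 without day 22 replicate 1. It was 0 with the RNA integrity number as a covariate, 0 with the ribosomal percentage as a covariate and 1 with only the groups compared in the fit. Without replicate 1 of day 43, the calls kept were Plk1, Mki67 and Foxm1, which fell, and Birc5 and Cenpa, which rose. In that library crypt stem cell markers summed to 561 CPM, against 111 and 130 CPM in the other standard-diet day 43 libraries. At day 22 they summed to 84.5 to 115 CPM on this diet, and their part in these counts was not tested. The median of 0.31 was 0.07 to 0.68 when a library was left out (0.07 without day 43 replicate 1, 0.11 without day 22 replicate 1 and 0.68 without day 22 replicate 3), -0.10 with the RNA integrity number and 0.03 with the ribosomal percentage.

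The values that involve day 43 moved with the scale. In deposited TPM, as a difference of mean log2(TPM + 0.5) and chosen after seeing the data, the median over all tested genes was -0.57 from day 22 to day 43 and 0.77 from day 43 to day 70 on the standard diet, and -0.31 and 0.72 on GW3965, against 0.05, -0.13, 0.01 and 0.08 in the normalised counts. The members' medians were -0.43, 2.12, -0.79 and 1.40 on that scale, against 0.31, 1.12, -0.42 and 0.71. On the standard diet from day 22 to day 43, 13 of 45 members were above 0 in TPM and 35 in the normalised counts. Of the nucleotide and clamp genes, Tyms was at 0.05, Tk1 at 0.12, Pcna at 0.28, Rrm2 at 0.56 and Rrm1 at 0.87 in TPM there, so that Tyms and Tk1 lay close to 0 although above the median of all genes. The mitotic genes that fell also lay below 0 in TPM, at -2.12 for Plk1, -2.04 for Foxm1, -1.56 for Mki67 and -0.88 for Cenpe.

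On GW3965, 0 members passed from day 22 to day 43 (0.229% of all genes rose and 0.0352% fell), 12 had an unadjusted p under 0.05 and the median was -0.42. Mki67 came nearest, at 60.8, 89.1 and 58.3 CPM at day 22 and 31.9, 32.6 and 30.9 CPM at day 43 (log2 fold change -1.13 ± 0.25 (SE), FDR 0.0546). Top2a was at 66.8, 97 and 56.8 CPM at day 22 and 44.8, 40.8 and 33.1 CPM at day 43. Without GW3965 day 22 replicate 2, 4 members had an unadjusted p under 0.05 and the median was -0.26. With the ribosomal percentage as a covariate these values were 3 and -0.60. DESeq2 called 3 members lower, Cenpe, Mki67 and Foxm1, so that the count depends on the tool. Over all 17063 tested genes it called 869 in either direction, against 45 with edgeR.

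**Figure D3:**
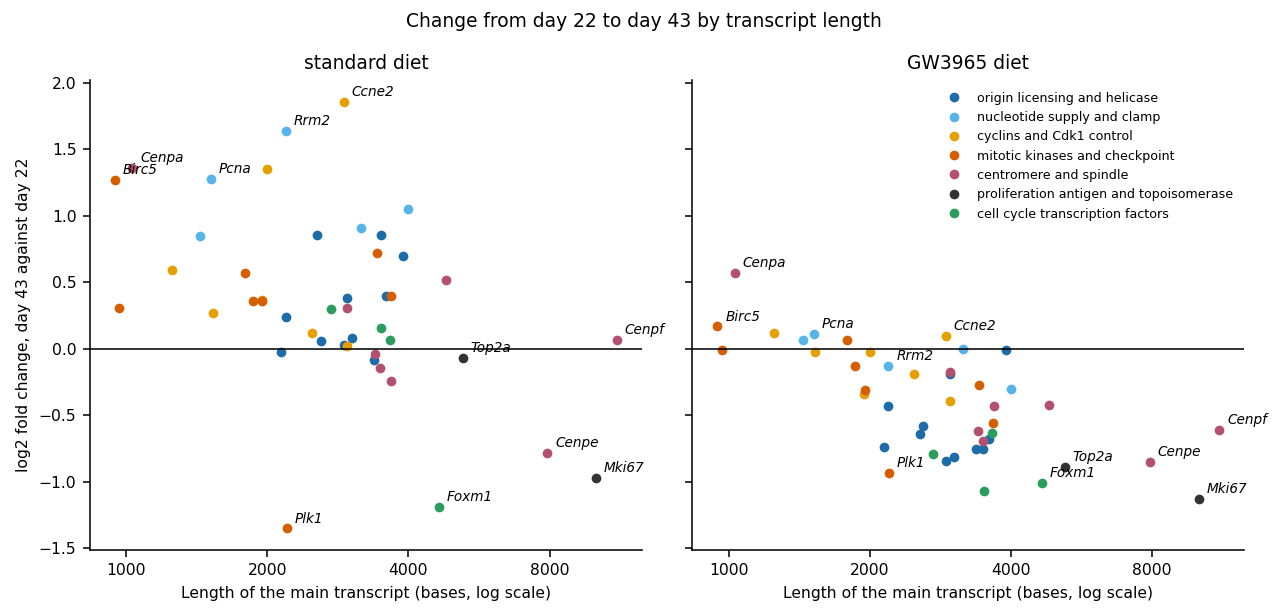
Log2 fold change from day 22 to day 43 against the length of the main transcript (bases, log axis), for the 45 members on the standard diet and on the GW3965 diet. Members with short transcripts sit higher than those with long ones, with Spearman correlations of -0.41 and -0.62.

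Between day 43 and day 70, 21 of 25 mitotic members rose on the standard diet and 11 of 25 on GW3965. In mice on the standard diet 30 members rose and 2 fell (23% and 26.7% of all tested genes), with a median of 1.12, and on GW3965 17 rose and 2 fell (21.3% and 17.9%), with a median of 0.71 (0.41 without day 70 replicate 3 and 1.04 without day 70 replicate 1). The same 2 members fell in both diets, Ccne2 and Cenpa, but not on every scale. In TPM Ccne2 was at 0.17 and Cenpa at 0.03 on the standard diet and at -0.23 and -0.52 on GW3965, and with the ribosomal percentage as a covariate Ccne2 was at 0.00 and 0.02 on the standard diet and GW3965 and Cenpa at 0.53 on the standard diet. Of the 19 members called on GW3965, 18 were also called on the standard diet, or 56.2% of the 32 there and 94.7% of the 19. Foxm1 was at 2.8, 8.08 and 7.24 CPM at day 43 and 38.7, 23.3 and 26.3 CPM at day 70 on the standard diet (log2 fold change 2.29 ± 0.34 (SE), FDR 2.3e-05), Plk1 at 9.45, 15.1 and 22.4 CPM at day 43 and 98.3, 56.4 and 66.9 CPM at day 70 (log2 fold change 2.24 ± 0.33 (SE), FDR 2e-05), and Kif20a at 9.67, 9.96 and 10.2 CPM at day 43 and 54.4, 35.5 and 46.2 CPM at day 70 (log2 fold change 2.19 ± 0.32 (SE), FDR 2.3e-05). On GW3965, Mki67 was at 31.9, 32.6 and 30.9 CPM at day 43 and 84.2, 128 and 121 CPM at day 70 (log2 fold change 1.81 ± 0.25 (SE), FDR 2.7e-05), Top2a at 44.8, 40.8 and 33.1 CPM at day 43 and 80.2, 129 and 169 CPM at day 70 (log2 fold change 1.67 ± 0.36 (SE), FDR 0.00104), and Tpx2 at 15.7, 12.9 and 13.8 CPM at day 43 and 25.3, 44.1 and 62.7 CPM at day 70 (log2 fold change 1.64 ± 0.34 (SE), FDR 0.00073). The day 70 libraries lay above all the day 43 libraries in each of these genes.

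Fewer S phase members passed, and their difference from the mitotic members was not tested. In the standard-diet group 9 of 20 rose, and the 5 of the nucleotide and clamp group did not pass, with values from -0.03 for Pcna to 0.75 for Rrm1. Ccne2 was at 92.3, 19.8 and 30.1 CPM at day 43 and 12.8, 17.1 and 17.5 CPM at day 70 (log2 fold change -1.59 ± 0.47 (SE), FDR 0.00777), and Cenpa at 92.3, 79.1 and 125 CPM at day 43 and 41.3, 53.3 and 50.9 CPM at day 70 (log2 fold change -1.03 ± 0.33 (SE), FDR 0.014). With the ribosomal percentage as a covariate, 0 members and 0 of all tested genes were called on either diet, while the members' median did not shrink (1.32 against 1.12 on the standard diet and 0.91 against 0.71 on GW3965); that percentage was 10 to 18.6% at day 43 and lay lower in every day 70 library. Comparisons that involve day 43 share the same libraries and are not independent of one another. The number called on GW3965 was 29 without 3 libraries that stood apart (standard-diet day 43 replicate 1, GW3965 day 70 replicate 1 and GW3965 day 0 replicate 4) and 10 without those with over 1000 CPM of stratified epithelium or skeletal muscle markers, which leaves 1 library at day 43 and 1 at day 70, both assumed to vary like the other groups. Myeloid markers summed to 717 to 11856 CPM at day 43 and 188 to 1190 CPM at day 70, and their part in these changes was not tested.

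**Figure D4:**
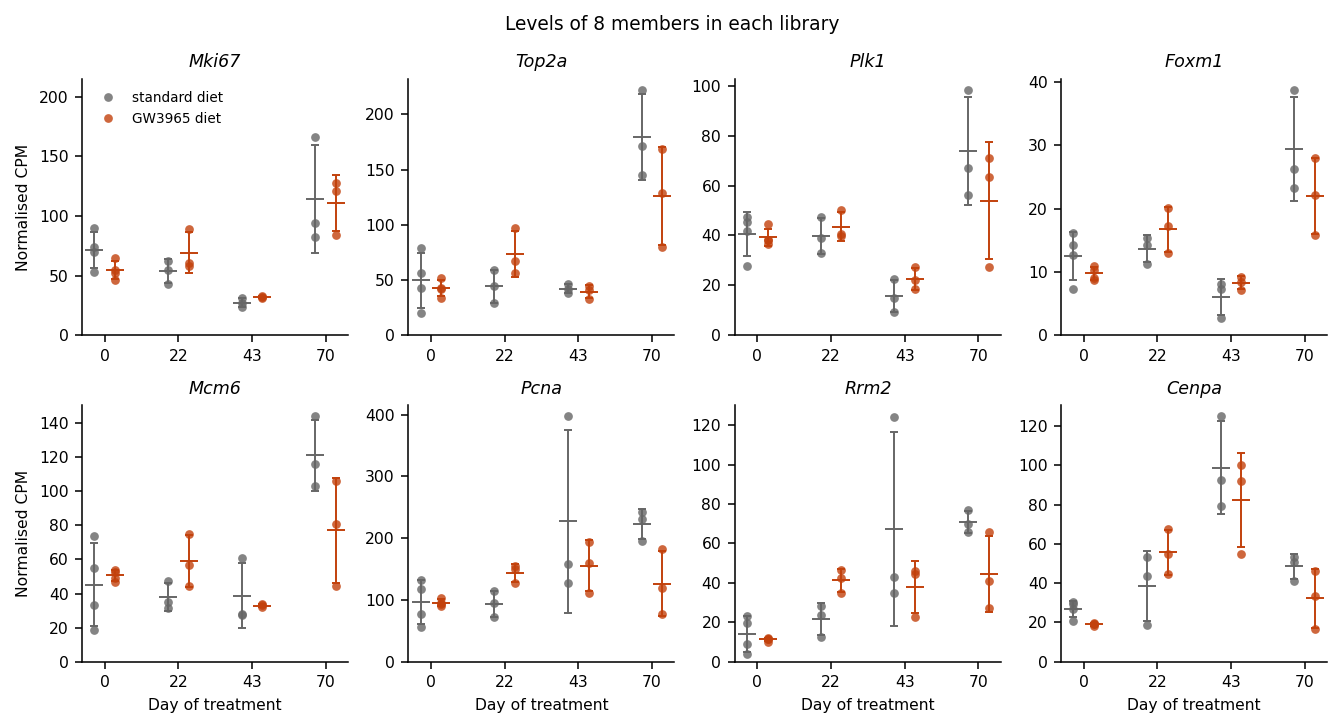
Normalised CPM of 8 members (Mki67, Top2a, Plk1, Foxm1, Mcm6, Pcna, Rrm2 and Cenpa) by day and diet. Points are libraries, the dash is the mean and bars are 1 SD. Cenpa and Pcna have their highest mean at standard-diet day 43 and the other members plotted at standard-diet day 70. For Pcna the day 43 mean includes 398 CPM in replicate 1, against 127 and 158 CPM in the others.

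At day 22 the diets gave different counts. On the standard diet 0 of the 45 members were called (7.56% of all tested genes rose, 1.99% fell), with a median log2 fold change of -0.04 (-0.28 to 0.13 when a library was left out, without day 0 replicate 2 and day 22 replicate 1), and by the unadjusted p Mybl2 alone was under 0.05 (log2 fold change 0.96 ± 0.40 (SE), FDR 0.149). DESeq2 called 0 as well. On GW3965, 11 members rose and 0 fell (13.7% and 7.05% of all genes), with a median of 0.63. They were Mcm10, Cdc45, Rrm2, Tk1, Ccne2, Aurka, Bub1, Birc5, Cenpa, Mybl2 and E2f1, and include both replication and mitotic members. Rrm2 was at 11.7, 11.7, 10.1 and 12.1 CPM at day 0 and 35.1, 46.4 and 42.3 CPM at day 22 (log2 fold change 1.86 ± 0.46 (SE), FDR 0.00774), Mybl2 at 4.32, 3.72, 6.22 and 5.57 CPM at day 0 and 13.2, 19.6 and 12 CPM at day 22 (log2 fold change 1.59 ± 0.40 (SE), FDR 0.00873), and Cenpa at 19.4, 18.1, 19.2 and 19.7 CPM at day 0 and 44.5, 55 and 67.3 CPM at day 22 (log2 fold change 1.54 ± 0.31 (SE), FDR 0.00164). In each the day 22 libraries lay above every day 0 library. The count moved with single libraries, since 5 members were called without GW3965 day 22 replicate 2, 5 without replicate 3, 7 without replicate 1, and 5 or 6 without day 0 replicates 3, 2 or 4. It was 33 when only the GW3965 groups entered the fit and 5 with the ribosomal percentage as a covariate, with the median at 0.63 in both. Over all genes these fits called 7071 of 15522 and 2149 of 17063, against 3534 of 17063 in the main fit. In TPM the median from day 0 to day 22 on GW3965 was 0.25, with 35 members above 0, against -0.32 over all tested genes. Immune cell markers were higher in every day 22 library than in any day 0 library of the same diet, on both diets. On the standard diet, where no member was called, the B cell markers went from 35.9 to 212 CPM to 293 to 570 CPM, the T cell markers from 8.71 to 30.4 CPM to 66.3 to 131 CPM and the myeloid markers from 63.1 to 113 CPM to 133 to 608 CPM. From day 0 to day 22 on GW3965 the B cell markers went from 61.3 to 144 CPM to 247 to 459 CPM, the T cell markers from 10.2 to 15 CPM to 84.2 to 91.2 CPM and the myeloid markers from 41.2 to 71.9 CPM to 178 to 411 CPM (lowest to highest library of each group), and their part in the members' values was not tested.

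The effect of diet itself was tested at each day, with the ribosomal percentage as a covariate. At day 22 no member was called (0.135% of all genes) and 5 had an unadjusted p under 0.05, Mcm10, Tyms, Birc5, E2f1 and E2f8. Of the 45 members 44 had a value above 0, the median was 0.58 (all genes -0.01), and in 15 the GW3965 libraries all lay above the standard-diet libraries, against 12.1% of all genes. The median was 0.37 to 0.84 when a library was left out, with 0.37 without GW3965 replicate 2, and the number at an unadjusted p under 0.05 was 0 without that library or without standard-diet replicate 1, 1 without standard-diet replicate 2, 8 without GW3965 replicate 3 and 22 without standard-diet replicate 3. That number was 23 with only the groups compared in the fit and 9 without the ribosomal percentage, with medians of 0.61 and 0.59. Birc5 was at 13.1, 25 and 34 CPM on the standard diet and 34.4, 47.6 and 51.8 CPM on GW3965 (log2 fold change 0.78 ± 0.33 (SE), FDR 0.415), and Mcm10 at 5.53, 5.96 and 8.73 CPM on the standard diet and 10.3, 15.2 and 11.6 CPM on GW3965 (log2 fold change 0.84 ± 0.38 (SE), FDR 0.469). The 95% interval for Birc5 ran from 0.09 to 1.46. Over the 45 members the intervals ran from -0.67 to 1.93. A test of the day 22 diet difference against the day 0 diet difference called 0 members (0.0234% of all genes), with 7 at an unadjusted p under 0.05 (Mcm10, Tk1, Ccnb2, Birc5, Cenpa, Cenpe and Mki67). That number rested on single libraries. It was 26 without standard-diet day 0 replicate 2, 22 without standard-diet day 22 replicate 3 and 2 without day 22 replicate 2 of either diet. DESeq2 called 0 for the diet at day 0, 22, 43 or 70.

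At day 70 the sign was the other way. No member was called (1.83% of all genes, either direction), and 2 had an unadjusted p under 0.05, Tyms and Mcm7 (21 members without GW3965 replicate 3, 0 without GW3965 replicate 1 and 1 without GW3965 replicate 2 or standard-diet replicate 1). Tyms, thymidylate synthase, was at 52, 53.6 and 58.5 CPM on the standard diet and 18, 32.7 and 39 CPM on GW3965 (log2 fold change -0.76 ± 0.27 (SE), FDR 0.135), and Mcm7 at 122, 99.1 and 92.5 CPM on the standard diet and 41.5, 60.7 and 95.1 CPM on GW3965 (log2 fold change -0.65 ± 0.28 (SE), FDR 0.225). The Tyms counts are uncertain, since its transcript shares a stretch with Reep3 and Map3k2. All 45 members had a value below 0, the median was -0.50 (all genes 0.02), and in 12 the GW3965 libraries all lay below the standard-diet libraries, against 8.53% of all genes. At day 70 crypt stem cell markers summed to 342 to 600 CPM on the standard diet and 157 to 380 CPM on GW3965. B cell markers summed to 4.68 to 9.75 and 18.7 to 361 CPM, and T cell markers to 4.21 to 14.3 and 20 to 67.1 CPM. Their part in the diet difference was not tested. The median moved with single libraries, since leaving out GW3965 day 70 replicate 1, the one with muscle markers, brought the median to -0.22, and leaving out replicate 3 to -0.82, when Mcm7 was called (log2 fold change -1.02, FDR 0.0401). The fit without replicate 3 called 1464 of 17454 tested genes in either direction, against 312 of 17063 in the main fit. The difference between the diet effects at day 70 and at day 0 was called for 0 members (0% of all genes), with Mcm7 alone at an unadjusted p under 0.05. The number under 0.05 was 8 without GW3965 day 70 replicate 3, 7 without standard-diet day 0 replicate 4 and 0 without GW3965 day 70 replicate 1.

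At day 0, 0.0293% of all genes and 0 members were called, with a median of -0.20 and 1 member, Cenpa, at an unadjusted p under 0.05. That median ran from -0.45 without standard-diet replicate 2, when 8 members were at an unadjusted p under 0.05, to 0.03 without standard-diet replicate 4, so that its sign rests on single libraries. At day 43, 0.0293% of all genes and 0 members were called, with a median of -0.04 (-0.15 to 0.10 when a library was left out, the latter without standard-diet replicate 1) and 0 at an unadjusted p under 0.05. The diet effect at day 43 against day 0 called 0% of all genes. Taken over all days jointly, 0.176% of all genes and 0 members were called, with Tyms alone under an unadjusted p of 0.05. In this joint test 7 members were under 0.05 without standard-diet day 0 replicate 2. The number was 6 without GW3965 day 70 replicate 3 and 0 without standard-diet day 70 replicate 1. DESeq2 called 0 members in the joint test and in each test of the diet effect between days. The smallest FDR of any member was 0.135 at day 70 and 0.415 at day 22. Diet and cage cannot be told apart on days 0, 22 and 43.

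**Figure D5:**
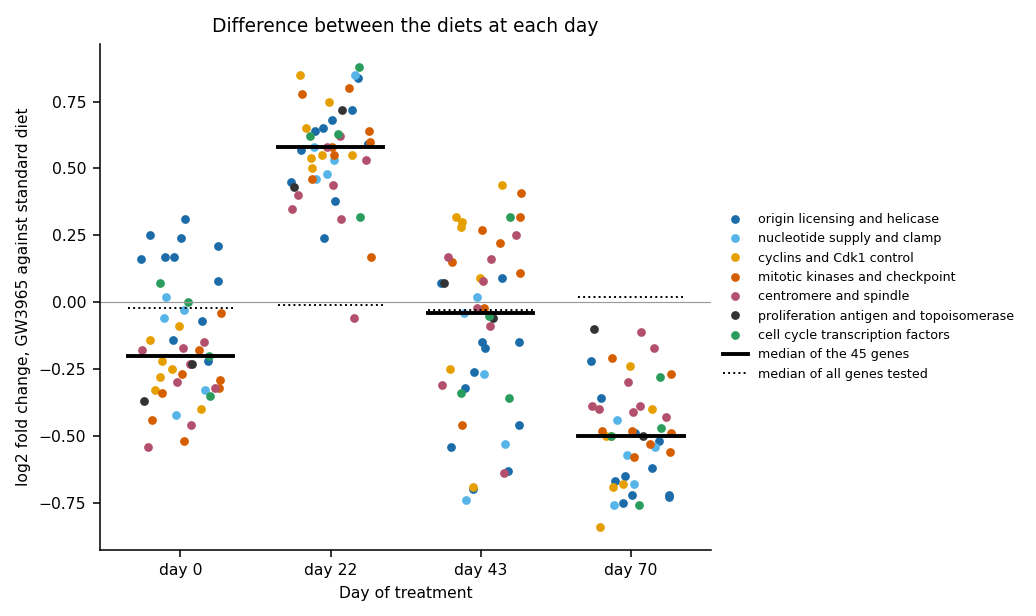
Log2 fold change of GW3965 over standard diet for each of the 45 members at days 0, 22, 43 and 70, with the median of each day as a bar. The medians are -0.20, 0.58, -0.04 and -0.50 with all libraries, and no member passed FDR 0.05 at any day.

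Other replication and mitotic genes, from lists that hold no member, mostly rose at day 70 on the standard diet. At day 70 over day 0, 19 of 22 other replication genes and 25 of 30 other mitotic genes rose on the standard diet, and 5 of 22 and 22 of 30 on GW3965, against 16.7% of all tested genes that rose on the standard diet and 14.7% on GW3965. Medians were 1.16 and 1.32 on the standard diet and 0.43 and 1.18 on GW3965. Racgap1, which acts in cytokinesis, was the mitotic gene with the smallest p on the standard diet (log2 fold change 1.5 ± 0.27 (SE), FDR 0.00044), and it rose on GW3965 too (log2 fold change 1.35 ± 0.27 (SE), FDR 0.00134). Pole, the leading-strand polymerase, was the replication gene with the smallest p on the standard diet (log2 fold change 1.91 ± 0.31 (SE), FDR 0.00021), and on GW3965 it was 1.29 (FDR 0.00498). Pttg1, the securin gene, was the mitotic gene of the list that fell on the standard diet (log2 fold change -0.66 ± 0.21 (SE), FDR 0.0192). At day 22 to day 43 on the standard diet 7 of 22 replication genes rose, of which Rfc4, a clamp loader subunit, had a log2 fold change of 1.27 (FDR 0.00175), and 4 of 30 mitotic genes rose, of which Mad2l1, the spindle checkpoint gene, had 1.54 (FDR 0.00612); across all tested genes 18% rose, a larger share than that of the mitotic genes. With the ribosomal percentage as a covariate 0 of all tested genes were called there. In standard-diet day 43 replicate 1, of integrity number 2.6, both genes were at their highest, with Rfc4 at 39.3, 20.3 and 22.9 CPM and Mad2l1 at 130, 46.9 and 60.4 CPM in the day 43 libraries, and its part was not tested.

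Of 12 genes for G1 cyclins, kinases and Myc, which act in the decision to enter the cycle, 7 rose at day 70 on the standard diet and 3 on GW3965, where 16.7% and 14.7% of all tested genes rose. Ccnd1, cyclin D1, was at 60.7, 95.9, 66.1 and 86.1 CPM at day 0 and 238, 181 and 175 CPM at day 70 on the standard diet (log2 fold change 1.36 ± 0.26 (SE), FDR 0.00081). Myc was at 17.7, 13.6, 26.8 and 28.9 CPM at day 0 and 65.1, 70.6 and 55.8 CPM at day 70 (log2 fold change 1.55 ± 0.36 (SE), FDR 0.00281), and on GW3965 at 34.4, 27.9, 19.1 and 30.2 CPM at day 0 and 58.1, 35.1 and 77.9 CPM at day 70 (log2 fold change 1.03 ± 0.36 (SE), FDR 0.0421). Ccnd1 lay at 87, 104, 83.9 and 72.4 CPM at day 0 and 79.5, 131 and 203 CPM at day 70 on GW3965 and was not called (log2 fold change 0.67, FDR 0.0729). Of 14 inhibitors, 2 rose (Cdkn1c and Cdkn2a) and 1 fell (Rbl2) on the standard diet, and 1 rose (Cdkn2a) and 1 fell (Wee1) on GW3965, counts close to the shares of all genes that rose (16.7% and 14.7%) and fell (13.7% and 6.82%). Cdkn1c was at 7.72, 9.92, 8.38 and 7.03 CPM at day 0 and 6.73, 36.2 and 21.4 CPM at day 70 on the standard diet. Day 70 replicate 1 thus lay below every day 0 library. Skeletal muscle markers summed to 8.73, 609 and 123 CPM in these day 70 replicates, and their part was not tested. Cdkn1a, the p21 inhibitor, was at 206, 158, 186 and 249 CPM at day 0 and 251, 121 and 134 CPM at day 70 on the standard diet and was not called, with a log2 fold change of -0.24. Cdkn2a, the Ink4a and Arf locus, was at 0.0471, 0, 0.0426 and 0 CPM at day 0, 0.215, 0.968 and 0.93 CPM at day 22, 6.12, 6.58 and 18.8 CPM at day 43 and 2.58, 9.71 and 12.8 CPM at day 70 on the standard diet. On GW3965 it was at 0.246, 0, 0 and 0 CPM at day 0, 0.481, 0.83 and 0.498 CPM at day 22, 8.87, 2.16 and 4.41 CPM at day 43 and 3.53, 0.7 and 14.2 CPM at day 70, so that within each diet every library of days 22 to 70 lay above the day 0 libraries, while across the diets the highest day 0 library (0.246 CPM) lay above the lowest of day 22 (0.215 CPM). Of 10 p53 targets, Bax rose and Gdf15 fell on the standard diet (log2 fold change -1.56 ± 0.36 (SE), FDR 0.00277 for Gdf15), and on GW3965 Phlda3 and Sesn2 rose and Gdf15 fell, again close to those shares. Phlda3 was at 14.9, 19, 18 and 18.9 CPM at day 0 and 89.4, 8.73 and 131 CPM at day 70 on GW3965, and Sesn2 at 9.68, 8.44, 6.71 and 7.95 and 23.9, 8.25 and 26.1 CPM. In both, day 70 replicates 1 and 3 lay above the day 0 libraries and replicate 2 did not, and stratified epithelium markers summed to 9178, 4.09 and 10825 CPM in these replicates; their part was not tested.

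The 6 crypt stem cell markers summed at day 70 to 342, 600 and 600 CPM on the standard diet against 144, 110, 129 and 151 CPM at day 0, and 157, 162 and 380 against 168, 154, 118 and 138 CPM on GW3965. The 6 smooth muscle markers summed to 1580, 3509 and 1953 CPM against 10888, 23417, 9607 and 8136 CPM on the standard diet. The 6 germinal centre B cell markers, from another dividing cell type, summed to 15.8 to 20.8 CPM at day 70 against 11.9 to 23.7 CPM at day 0, and to 28.1 to 99.9 CPM at days 22 and 43. The part of these cell types in the members' levels was not tested.

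Some members share sequence with other genes. Ccna2 overlaps Exosc9 on the opposite strand by 431 bases, Ccne2 Ints8 by 474, Gins2 Gse1 by 2758, Kif20a Cdc23 by 979 and Mcm7 Ap4m1 by 247. The sources do not state whether strand was used in counting, so reads there cannot be assigned. By genome position, Cdt1 overlaps Gm20388 on the same strand (mean 22.1 CPM, against 19.3 CPM for Cdt1). Ube2c overlaps Tnnc2 on the opposite strand (76 CPM, against 37.6 CPM for Ube2c), and some other members overlap further genes. The main transcript of Tyms shares 355 bases at 97.7% identity with Reep3 in the reverse orientation (mean 104 CPM) and 357 bases at 95.5% identity with Map3k2 in the same orientation (40.9 CPM), against a mean of 39.1 CPM for Tyms, and stretches at least 95% identical with other protein-coding genes, so its values are uncertain. Pseudogene copies at least 95% identical over 200 bases or more of members took at most 0.115% of the member's CPM.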

How the data were processed

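Colon RNA was sequenced as paired reads of 150 bases, and the authors quantified transcripts with kallisto on GRCm38. The deposited expected counts (estimated, so not whole) and the deposited TPM values, per transcript, were the starting point. Versioned transcript names were mapped to genes with GENCODE M21 (116728 of 119414 transcripts matched; 35975 genes). Expected counts were summed by gene and rounded. Genes were kept by filterByExpr (17063), scaled by TMM and tested with the edgeR quasi-likelihood F-test (edgeR 4.0.16, R 4.3.3) in one model of 8 groups and 26 libraries, with Benjamini-Hochberg FDR below 0.05 over all genes tested. CPM are normalised by these factors. Diet comparisons held the share of counts on 88 ribosomal protein genes as an additive covariate, in place of the percentage of ribosomal RNA used in the study, which was not used here; day comparisons held none, because that share follows the day. Levels per length are means of deposited TPM summed by gene.

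Replicates of a group are separate libraries. Depth was 18195345 to 41522204 counts. Values in every library were given for the 2 members of each role with the highest mean, for Mki67, Top2a, Ccne1, Cdc25c, E2f1 and Mybl2, for members called in a diet comparison, and for the 3 called members of the largest change in each day comparison whose groups did not overlap; genes of other lists by smallest p. Cdkn1a, Myc and Ccnd1 were named besides, and Birc5, Mcm10, Tyms and Pttg1 were chosen after their values were seen. The members, the lists and the tests were chosen with earlier results of these data known. Alternatives were DESeq2 1.42.0, another normalisation, no filter, other covariates, a replicate block, fits on the groups compared only, leaving out each library, and, added after seeing the data, leaving out libraries that stood apart and deposited TPM as the scale. Close copies were searched with BLAST+ 2.17.0. The main edgeR fit was tried on simulated data with known changes, for standard-diet day 70 against day 0 and for the diets at day 70. The other comparisons and the alternatives were not tried on simulated data.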

Additional observations from a re-analysis of the deposited data

Results flagged for a closer look

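In groups of 4 libraries, 4 of 90 tests of members found a library farther from the others than the 95% critical value of Dixon's test allows, and chance flags about 1 in 20 groups. Ccnb2 in standard-diet day 0 replicate 2 was at 17.9 CPM, the lowest of its group, with a gap to its nearest neighbour of 0.95 of the group's range. Ube2c in the same library was at 15.2 CPM (0.868 of the range). That library also had the highest smooth muscle marker sum (23417 CPM), and the part of it in these values was not tested. Cdc25c in GW3965 day 0 replicate 2 was at 2.6 CPM (0.878 of the range), and E2f1 in GW3965 day 0 replicate 1 at 7.86 CPM (0.836 of the range). Groups of 3 libraries were not examined this way.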

How the results depend on the processing

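Of 143 member calls in the day comparisons, DESeq2 kept 143, the median of ratios normalisation 140, no filter on low counts 130, the RNA integrity number as a covariate 122 and the fit on the groups compared only 112, while the ribosomal percentage as a covariate kept 69 and lost 70. The sign turned for 5 of them: Rrm1 from day 22 to day 43 on the standard diet was -0.07 with the RNA integrity number, and with the ribosomal percentage Gins2 in that comparison was -0.10, Ccne2 from day 43 to day 70 was 0.00 on the standard diet and 0.02 on GW3965, and Cenpa was 0.53 on the standard diet. On the standard diet from day 22 to day 43 (14 members called) the count was 0 with the RNA integrity number, 0 with the ribosomal percentage, 1 with the groups compared only, 8 without 3 libraries that stood apart (standard-diet day 43 replicate 1, GW3965 day 70 replicate 1 and GW3965 day 0 replicate 4), and 5 to 14 when a library was left out. From day 43 to day 70 it was 0 with the ribosomal percentage on the standard diet, with a median of 1.32 against 1.12 (32 called; 25 to 32 when a library was left out), and 0 on GW3965, with a median of 0.91 against 0.71 (19 called; 29 without 3 libraries, 10 without the libraries rich in stratified epithelium or skeletal muscle markers, which leaves 1 library a group, assumed to vary like the other groups; 14 to 26 when a library was left out). On GW3965 from day 0 to day 22 (11 called) it was 5 with the ribosomal percentage and 33 with the groups compared only. The median was 0.63 in both. Over all genes these fits called 2149 of 17063 and 7071 of 15522, against 3534 of 17063 in the main fit. The member count was 5 to 9 when a library was left out. From day 22 to day 43 (0 called) it was 3 with DESeq2, which called 869 of all genes against 45 with edgeR. It was 1 with no filter and 0 to 1 when a library was left out. From day 0 to day 70 (25 called) it was 10 to 30 when a library was left out. The median there was still 0.98 without the marker-rich libraries, which leaves 1 library at day 70. The standard-diet count from day 0 to day 70 was 34 to 43 when a library was left out, and the diet count at day 70 was 0 to 1. Leaving out the marker-rich libraries could not be run for standard-diet day 70, where it removes the group. In deposited TPM, added after seeing the data, the members' median turned from 0.31 to -0.43 on the standard diet from day 22 to day 43 and moved from 1.12 to 2.12 from day 43 to day 70. On GW3965 it moved from 0.63 to 0.25 from day 0 to day 22, from -0.42 to -0.79 from day 22 to day 43 and from 0.71 to 1.40 from day 43 to day 70. The cause of these changes was not tested.

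Same-numbered libraries of both diets at one day deviated with a mean correlation of -0.0661 over 13 pairs, 2 of them over 0.1. Groups of 3 or 4 libraries are too small for this to settle whether the replicate numbers pair the libraries. Same-numbered libraries of different days were not compared this way. With the number as a replicate block, 125 of the 143 calls were kept, the count on GW3965 from day 0 to day 22 was 6, and the other counts stayed within 1.5 times.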

Other observations

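Grouped by the letters in their promoters, the members differed in median log2 fold change from day 43 to day 70 on the standard diet, at 1.18 for the 16 members with TTTGAA, 0.95 for the 8 with E2F letters and 0.57 for the 13 with neither, Cdk1 holding both. From day 0 to day 70 on the same diet the medians were 1.27, 1.52 and 1.30. On GW3965 from day 43 to day 70 they were 1.16, 0.77 and 0.24. In other comparisons the members with neither were highest. The medians were 0.22, 0.31 and 0.85 from day 22 to day 43 on the standard diet, and 0.58, 0.30 and 1.15 from day 0 to day 22 on GW3965. These are descriptions of few members with overlapping ranges, and no difference between them was tested.

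Within a library, the mean log2 level of the S phase members minus that of the mitotic members was 0.18 to 0.96 in the standard-diet day 43 libraries, with 0.96 in replicate 1, against -0.47 to 0.13 in the standard-diet day 0 libraries, -0.02 to 0.15 in those of day 22 and -0.14 to 0.15 in those of day 70. In the GW3965 libraries it was -0.08 to 0.47 at day 0, 0.11 to 0.19 at day 22, 0.09 to 0.20 at day 43 and -0.25 to -0.12 at day 70. The integrity number of standard-diet day 43 replicate 1 was 2.6. Its crypt stem cell markers summed to 561 CPM, against 111 and 130 CPM in the other libraries of its group. The part of either in the value of 0.96 was not tested.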
